A study of Mus musculus with 6 samples.

Results

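The Siglec family is described here by 7 genes, Cd22, Siglecg, Cd33, Siglece, Siglec5, Siglech and Siglec1, chosen as the probe sets that carry 1 of these symbols in the deposited table. Each gene had 1 probe set, which gives 7 of the 28350 probe sets on the array, and all 7 were among the 15295 genes tested. The study transduced a line of mouse pre-pro-B cells that lack Ebf1 (Ebf1-/-) with a retrovirus and measured RNA 24 hours later on Affymetrix arrays, 2 per group. The vectors were MigR1 with no insert (Control), MigY-EBF1 (EBF1) and MigR-Pax5 (Pax5), and cells were sorted for expression of EBF1, Pax5 or neither before RNA was taken. The lack of Ebf1 and the culture were common to the 3 groups: OP9 stroma, with stem cell factor, IL-7 and flt3-ligand at 10 ng/ml each. The cells are thus 1 cultured line under retroviral expression. Nothing in the labels says whether arrays 1 and 2 of a group came from separate transductions, so the p-values reflect the spread of these samples alone, which may be technical.

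Siglecs are cell-surface lectins of the immunoglobulin superfamily that bind sialic acid, the sugar that caps many glycan chains. Most carry inhibitory tyrosine motifs in the cytoplasmic tail that recruit the phosphatases encoded by Ptpn6 and Ptpn11. Cd22 and Siglecg encode the B-cell members, which dampen signalling of the B cell receptor. Siglech encodes a receptor without such a motif, which signals through the adaptor encoded by Tyrobp and is known as a marker of plasmacytoid dendritic cells. Cd33, Siglece and Siglec5 (named Siglecf in RefSeq, and known from eosinophils) are mostly myeloid, and Siglec1, or sialoadhesin, is a macrophage receptor.

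The promoter windows of the 3 Siglec genes that passed a test, and of Cd22, are shown because EBF1 and Pax5 are DNA-binding factors. They come from RefSeq (build GRCm38.p6), span 250 bases before to 50 after a transcription start, and read 5′ to 3′ on the strand of the gene. Capitals mark matches, on either strand, to the letters CCCNNGGG, the core of the palindrome bound by EBF proteins, and in Cd22 also the base on either side of it.
Cd33, chr7:43533122-43533421, minus strand: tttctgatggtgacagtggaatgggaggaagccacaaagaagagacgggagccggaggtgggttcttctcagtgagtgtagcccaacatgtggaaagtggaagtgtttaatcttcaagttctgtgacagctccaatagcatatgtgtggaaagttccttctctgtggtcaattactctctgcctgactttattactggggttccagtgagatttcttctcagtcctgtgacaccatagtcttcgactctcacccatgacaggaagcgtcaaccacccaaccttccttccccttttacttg
Siglech, chr7:55767934-55768233, plus strand: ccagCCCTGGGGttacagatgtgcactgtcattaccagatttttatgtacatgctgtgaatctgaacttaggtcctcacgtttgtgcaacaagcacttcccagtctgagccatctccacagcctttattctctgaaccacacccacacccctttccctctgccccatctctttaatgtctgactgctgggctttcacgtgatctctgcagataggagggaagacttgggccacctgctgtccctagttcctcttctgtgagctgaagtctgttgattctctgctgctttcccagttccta
Siglecg, chr7:43407989-43408288, plus strand: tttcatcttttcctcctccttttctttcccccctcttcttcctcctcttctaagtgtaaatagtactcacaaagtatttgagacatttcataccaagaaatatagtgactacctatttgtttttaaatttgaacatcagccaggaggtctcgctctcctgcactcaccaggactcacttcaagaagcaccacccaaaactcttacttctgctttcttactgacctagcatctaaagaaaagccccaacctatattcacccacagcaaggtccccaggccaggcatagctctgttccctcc
Cd22, chr7:30878979-30879278, minus strand: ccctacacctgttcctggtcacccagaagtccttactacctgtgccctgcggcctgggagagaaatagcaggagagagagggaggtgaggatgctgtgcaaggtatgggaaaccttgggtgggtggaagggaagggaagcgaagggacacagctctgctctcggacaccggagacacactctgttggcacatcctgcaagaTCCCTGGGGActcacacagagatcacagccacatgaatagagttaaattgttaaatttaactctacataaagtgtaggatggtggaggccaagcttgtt

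Windows were given for 6 of the 7 genes, and the first window is used for Siglecg, which has 2. CCCNNGGG occurred in 13.7% of all 32851 windows of this length, and in those of Cd22 and Siglech. The longer EBF palindrome, which is that core with a T before it and an A after it, occurred in 0.904% of windows and in that of Cd22 alone among the 6 genes, where it begins 49 bases before the start and reads TCCCTGGGGA. The core match of Siglech begins 246 bases before the start. GCGTGAC, part of the sequence recognised by Pax5, occurred in 2.09% of windows and in 0 of the 6 genes. These are matches of letters in 1 window, which do not show binding. The Cd33 and Siglec5 windows share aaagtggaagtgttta, a run of 16 bases that begins 157 and 27 bases before their starts, the longest run shared by any pair of the 6 genes.

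The vectors and the cell type were read first. Pax5 lay at 4.93 and 5.10 on the Control arrays, 6.01 and 6.17 on the EBF1 arrays, and 11.42 and 11.33 on the Pax5 arrays. The brighter Ebf1 probe set lay at 8.87 on both Control arrays and at 9.88 and 9.96 on the EBF1 arrays. The dimmer Ebf1 probe set, at 4.70 and 4.75 in Control, was lower in EBF1 cells (4.37 and 4.25) and higher in Pax5 cells (6.02 and 6.04), so the pair disagreed. Where the brighter one lies with respect to the deletion is unknown here, so it does not check the knockout. Of 10 early lymphoid progenitor markers all were tested, with Flt3 at 10.05 and 10.04 and Il7r at 9.82 and 9.85 on the Control arrays. Below the lower quartile of every array lay 1 of 10 macrophage and monocyte markers (Cd163) and 4 of 10 granulocyte markers (Ly6g, Ltf, Ccr3 and Il5ra). Of these, Ccr3 and Il5ra are typical of eosinophils. The B-cell marker Ms4a1 lay there too. Other myeloid markers lay higher, with Mpo at 7.39 and 7.41 and Adgre1 at 4.91 and 5.05 on the Control arrays. Between arrays 1 and 2 the genes tested differed with an SD of 0.152 in Control, 0.161 in EBF1 and 0.263 in Pax5 cells. All levels are log2 RMA values, and all differences are log2 differences of group means (n = 2 arrays per group) with the SE from limma. A change is called at an adjusted p of 0.05 over the 15295 genes. A lower value in such bulk samples may be fewer cells with the transcript or less of it per cell, which cannot be told apart.

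**Figure D1:**
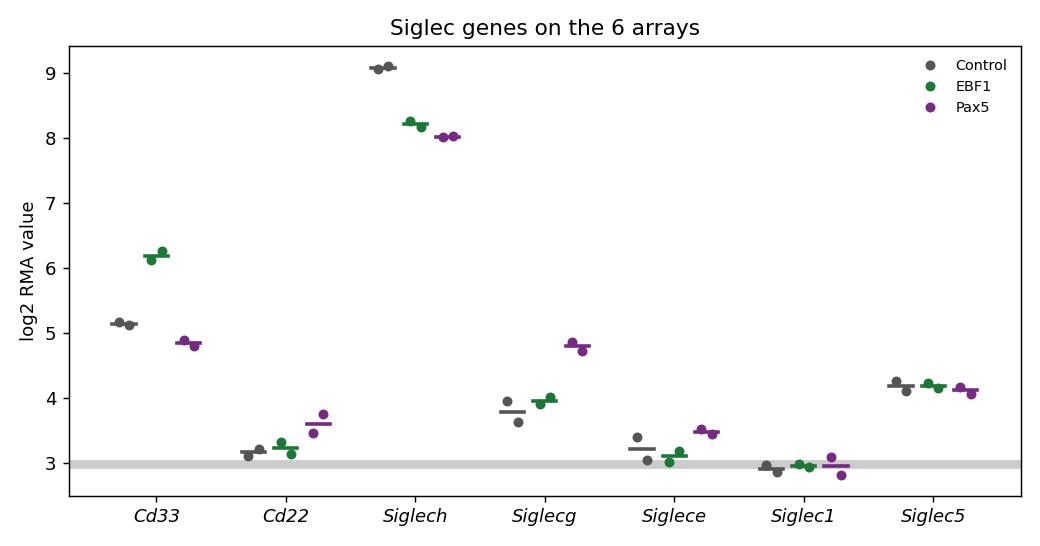
Log2 RMA values (y axis) of the 7 Siglec genes (x axis) on the 6 arrays. Points are arrays, short bars are group means (n = 2) and the grey band spans the 30th percentiles of the 6 arrays. Cd33 is high in EBF1 cells, Siglecg in Pax5 cells and Siglech in Control cells.

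With EBF1, 2 of the 7 Siglec genes changed, against 5.6% of all genes tested in that comparison (3.14% higher and 2.46% lower). Cd33 rose 2.07-fold and Siglech fell, while the B-cell members Cd22 and Siglecg and the remaining 3 did not pass. With Pax5, 2 of 7 changed, against 4.22% of all genes (2.16% higher and 2.06% lower). Siglecg rose 2.01-fold and Siglech fell. Between EBF1 and Pax5 cells 2 of 7 differed, against 13.9% of all genes (8.71% higher and 5.2% lower), with Cd33 higher and Siglecg lower in EBF1 cells. The median difference over the 7 genes was 0.05 for EBF1 against Control (0.01 over all genes tested), 0.04 for Pax5 against Control (-0.04) and 0.01 for EBF1 against Pax5 (0.04). The comparisons with EBF1 and with Pax5 share their Control arrays. When limma was fitted to every probe set of the array without a filter, the same genes passed in each comparison, and 1.97%, 1.57% and 5.9% of the 28350 probe sets were called.

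**Figure D2:**
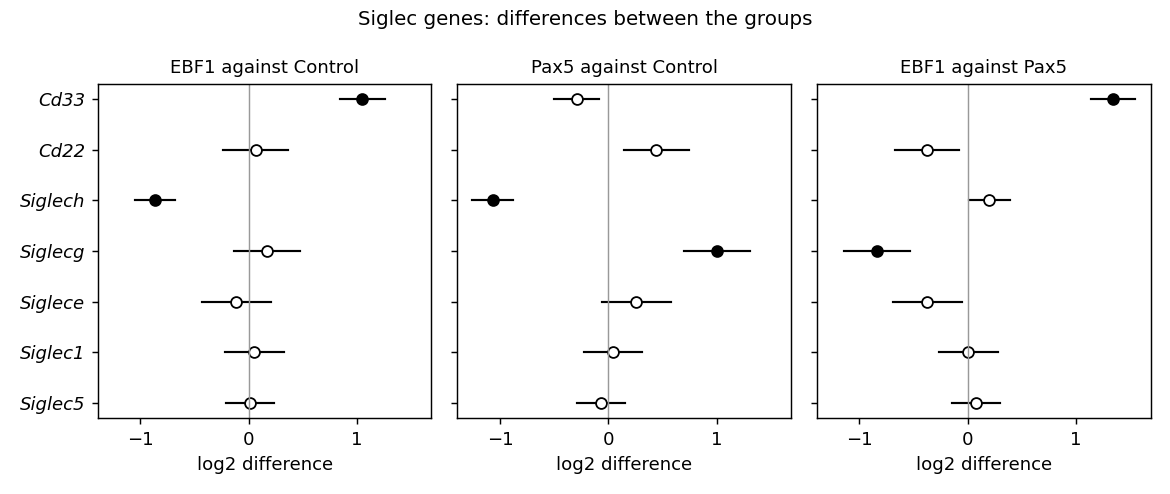
Log2 differences (x axis) of the 7 Siglec genes in the 3 comparisons, with 95% confidence intervals from limma as lines. Filled points passed an adjusted p of 0.05. In each panel 2 points are filled, 1 on either side of 0.

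Of the B-cell members, Siglecg (probe set 10552380, chromosome 7) encodes Siglec-G, an inhibitory receptor of B cells. It lay at 3.95 and 3.64 on the Control arrays, 3.91 and 4.02 on the EBF1 arrays, and 4.87 and 4.73 on the Pax5 arrays. Both Pax5 arrays lay above the other 4, and the EBF1 and Control arrays overlapped. Siglecg rose by 1.01 with Pax5 (SE 0.12, limma adjusted p = 0.0115) and was 0.84 lower in EBF1 than in Pax5 cells (difference -0.84, SE 0.12, limma adjusted p = 0.01). Against Control, the EBF1 difference was 0.17 (95% interval -0.14 to 0.47, limma adjusted p = 0.545). Without Control 1 or Control 2 the rise with Pax5 was 1.16 (limma adjusted p = 0.0515) or 0.85 (0.0883), and did not pass. Without EBF1 1 or EBF1 2 the difference between the factors did not pass (limma adjusted p = 0.0901 and 0.0661). In the authors' deposited table the step-up adjusted p was 0.187 for Pax5 against Control and 0.136 for Pax5 against EBF1.

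Cd22 (probe set 10562132, chromosome 7), the other B-cell inhibitory receptor, was 3.11 and 3.22 in Control, 3.32 and 3.14 in EBF1 cells, and 3.47 and 3.75 in Pax5 cells. Both Pax5 arrays were above the other 4 here too, but the change did not pass. The difference was 0.44 with Pax5 (SE 0.12, 95% interval 0.14 to 0.74, limma adjusted p = 0.122) and 0.06 with EBF1 (95% interval -0.23 to 0.36, limma adjusted p = 0.846). Without Pax5 1 the Pax5 difference was 0.58 and passed (limma adjusted p = 0.0296), as did the difference between the factors (-0.52, limma adjusted p = 0.0264). Its values lay close to the 30th percentile of the arrays (2.92 to 3.04). The EBF1 and Control arrays overlapped. The longer palindrome match shown above lies in the window of Cd22, and its part in these values was not tested.

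Markers of B cells were read beside these genes. Of 8 tested, 0 fell with Pax5 and those that rose included Cd72 (0.97) and Vpreb3 (1.99). The list median was 0.24 against -0.04 over all genes, of which 2.16% were called higher and 2.06% lower. With EBF1, Cd79b (5.41) and Cd72 (0.63) rose and 0 fell, with a list median of 0.17 against 0.01 over all genes. Of all genes tested, 3.14% were called higher and 2.46% lower with EBF1. The summed level of the 10 markers, as linear values, was 766 to 810 on the Control arrays, 1086 to 1095 on the Pax5 arrays and 1650 to 1660 on the EBF1 arrays. Its rise with EBF1 was mostly that of Cd79b, from 4.11 and 3.98 in Control to 9.45 and 9.46 in EBF1 cells (log2). The part of the sum in the Siglecg and Cd22 values was not tested.

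Cd33 (probe set 10562709, chromosome 7) is the founding member of the myeloid Siglecs. It was 5.17 and 5.13 on the Control arrays, 6.13 and 6.26 on the EBF1 arrays, and 4.90 and 4.81 on the Pax5 arrays. Neither factor's arrays overlapped the Control arrays, with EBF1 arrays above and Pax5 arrays below. Cd33 rose by 1.05 with EBF1 (SE 0.08, limma adjusted p = 0.00287), and the difference between EBF1 and Pax5 cells was 1.34 (SE 0.08, 2.53-fold, limma adjusted p = 0.000697). The Pax5 difference from Control was -0.29 (95% interval -0.50 to -0.09) and did not pass (limma adjusted p = 0.13). The rise with EBF1 passed whichever array was left out, and so did the difference between the factors. Without a Control or an EBF1 array, the rise was 0.99 to 1.11 and passed only narrowly, with 1 array left in that group. Leaving out a Pax5 array takes nothing from the groups compared for this rise. In the authors' deposited table the step-up adjusted p was 0.0754 for EBF1 against Control and 0.0375 for the difference between the factors.

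The other mostly myeloid members did not pass in any comparison. Siglece (probe set 10562720, chromosome 7), an inhibitory receptor of neutrophils and macrophages, was 3.40 and 3.06 in Control, 3.03 and 3.20 in EBF1 cells, and 3.52 and 3.45 in Pax5 cells. Both Pax5 arrays lay above the other 4, at differences of 0.26 from Control (95% interval -0.06 to 0.58, limma adjusted p = 0.323) and -0.37 for EBF1 against Pax5 (-0.69 to -0.06, limma adjusted p = 0.117). Like those of Cd22, the Siglece values lay close to the 30th percentile of the arrays (2.92 to 3.04). Siglec5 (probe set 10552369, chromosome 7) ranged from 4.07 to 4.27 over the 6 arrays, with all 3 groups overlapping. Its differences were 0.01 with EBF1 (95% interval -0.21 to 0.23) and -0.07 with Pax5 (-0.29 to 0.15). Siglec1 (probe set 10487823, chromosome 2) ranged from 2.82 to 3.10, and was above the 30th percentile on 3 of 6 arrays. Its differences were 0.05 with EBF1 (-0.22 to 0.32) and 0.04 with Pax5 (-0.23 to 0.31).

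In RefSeq the coding gene directly before Siglecg on chromosome 7 is Siglecf, the Siglec5 of the array. Side by side, the Pax5 differences of these neighbours were 1.01 for Siglecg and -0.07 for Siglec5. The coding gene after Cd22 is Mag, which encodes the Siglec of myelin and differed from Control by -0.11 with EBF1 and 0.04 with Pax5. Siglec15, a related receptor of the Tyrobp pathway, differed by -0.06 and -0.23. Neither Mag nor Siglec15 passed in any comparison.

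Beside Cd33, no myeloid marker tested was called higher with EBF1. Of 7 macrophage and monocyte markers tested, Adgre1 was called lower with EBF1 (-0.72), and of 4 granulocyte markers 0 passed. The list medians were -0.11 and 0.05, against 0.01 over all genes. Of all genes tested, 3.14% were called higher and 2.46% lower with EBF1, and 2.16% and 2.06% with Pax5. S100a8 was 3.33 and 3.50 in Control and 4.01 and 4.10 in EBF1 cells. That difference did not pass (0.64, limma adjusted p = 0.451). With Pax5 the granule enzyme gene Mpo fell (-1.03), while the calprotectin genes S100a8 (1.66, limma adjusted p = 0.0818) and S100a9 (1.40, 0.176) differed the other way without passing, and the list median was 0.58 against -0.04 over all genes. S100a8 was 4.41 on Pax5 1 and 5.75 on Pax5 2, and S100a9 4.85 and 6.45, so Pax5 2 was the higher array for both. The summed linear level of the 10 macrophage and monocyte markers was 167 to 176 in Control, 147 to 152 in EBF1 cells and 160 to 166 in Pax5 cells. For the 10 granulocyte markers it was 243 on both Control arrays, 206 to 224 in EBF1 cells and 168 to 273 in Pax5 cells. Mpo, at 7.39 and 7.41 in Control, made up most of that sum on the Control arrays.

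Siglech (probe set 10553559, chromosome 7), the receptor that signals through Tyrobp, was the only one of the 7 to fall against Control, and it fell with both factors. It was 9.07 and 9.11 on the Control arrays, 8.27 and 8.17 on the EBF1 arrays, and 8.01 and 8.03 on the Pax5 arrays. The Control arrays lay above all others, and the EBF1 arrays above the Pax5 arrays. Siglech fell by 0.87 with EBF1 (SE 0.08, limma adjusted p = 0.00368) and by 1.07 with Pax5 (SE 0.08, limma adjusted p = 0.00241). The difference between the factors was 0.20 (95% interval 0.01 to 0.39) and did not pass (limma adjusted p = 0.146), although it passed when eBayes was run with a trend and robustly (0.033). The fall with Pax5 passed whichever array was left out. The fall with EBF1 did not pass without Control 1, Control 2 or EBF1 2 (limma adjusted p = 0.0535, 0.0595 and 0.0551), at differences of -0.88, -0.85 and -0.82. In the authors' deposited table the step-up adjusted p was 0.0671 for EBF1 and 0.0653 for Pax5.

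Other genes of plasmacytoid dendritic cells moved both ways. Of 9 tested with EBF1, Ly6d (2.33), the transcription factor genes Spib (1.29) and Irf8 (0.46) rose and the chemokine receptor gene Ccr9 (-1.61) fell. With Pax5, Irf8 (0.72) rose and Ly6d (-0.97) and Pacsin1 (-0.73) fell. Of all genes tested, 3.14% were called higher and 2.46% lower with EBF1, and 2.16% and 2.06% with Pax5. The list medians were -0.01 and -0.15, against 0.01 and -0.04 over all genes. The summed linear level of the 9 genes on the array was 4087 to 4125 in Control, 3821 to 3923 in EBF1 cells and 3889 to 4296 in Pax5 cells. Most of that sum was 1 gene, Cox6a2, at 11.42 and 11.41 in Control. Cox6a2 was 11.18 and 11.14 in EBF1 cells and 11.54 and 11.40 in Pax5 cells. The part of the sum in the Siglech values was not tested. Early lymphoid progenitor markers were lower beside Siglech: 6 of 10 fell with EBF1 and 4 of 10 with Pax5, against 2.46% and 2.06% of all genes. Their summed linear level was 4476 to 4509 in Control, 3222 to 3349 in EBF1 cells and 3518 to 3530 in Pax5 cells. The part of this in the Siglech values was not tested either. Tyrobp, the adaptor of Siglech, was between 10.64 and 10.75 on the 6 arrays, at differences of -0.10 with EBF1 and -0.02 with Pax5 (limma adjusted p = 0.503 and 0.892). Stromal genes were read for carried-over OP9 cells. Against Control 0 of 8 tested passed with either factor, beside 5.6% (EBF1) and 4.22% (Pax5) of all genes. Among the stromal genes, Fn1 (0.41) was higher in EBF1 than in Pax5 cells. Their summed linear level over the 10 genes on the array was 581 to 603 in Control, 709 to 733 in EBF1 cells and 616 to 775 in Pax5 cells, so all 4 arrays with a factor lay above both Control arrays. Pax5 2 stood apart from Pax5 1, at 6.04 against 5.31 for Col1a2 and 4.34 against 3.72 for Dcn. Without Pax5 2, the Pax5 differences from Control were -1.08 for Siglech and 1.08 for Siglecg, and rest on 1 Pax5 array. The part of the stromal genes in the Siglec values was not tested.

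Of 14 genes tested that act with Siglecs in signalling, 3 changed with EBF1, against 5.6% of all genes: Cd79b (5.41), which encodes part of the B cell receptor complex, and the phospholipase gene Plcg2 (0.48) rose and Lyn (-0.37) fell, with a list median of 0.08 against 0.01 over all genes. Lyn encodes the kinase that phosphorylates the inhibitory motifs. With Pax5, 2 of 14 changed, against 4.22% of all genes, and Ptpn11 fell (-0.40, SE 0.07, limma adjusted p = 0.0369), with a list median of 0.07 against -0.04. Ptpn6 was 8.57 and 8.64 in Control, 8.72 and 8.65 in EBF1 cells, and 8.27 and 8.10 in Pax5 cells. It was 0.50 higher in EBF1 than in Pax5 cells (SE 0.09, limma adjusted p = 0.0185), and its Pax5 difference from Control of -0.42 did not pass (0.0649). Lyn was 8.71 and 8.68 in Control, 8.32 and 8.33 in EBF1 cells, and 9.00 and 8.96 in Pax5 cells. The difference between the factors for Lyn was -0.65 (SE 0.07, limma adjusted p = 0.00398). Between the factors 6 of the 14 differed, against 13.9% of all genes: 4 were higher in EBF1 cells, Cd79b and Ptpn6 among them, and those lower included Lyn, with a list median of -0.06 against 0.04.

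Siglec ligands are made by sialyltransferases, 2 of which rose with EBF1 and fell with Pax5. Of 13 sialyltransferase genes tested, St6galnac4 (0.70), St3gal1 (0.65) and St3gal4 (0.48) rose with EBF1 and 0 fell, with a median of 0.25 against 0.01 over all genes. Of all genes tested, 3.14% were called higher and 2.46% lower with EBF1. With Pax5, St3gal1 (-0.80) and St3gal4 (-0.45) fell and 0 rose, with a median of -0.12 against -0.04. The shares of all genes with Pax5 were 2.16% higher and 2.06% lower. St3gal1 was 7.24 and 7.30 in Control, 7.90 and 7.93 in EBF1 cells, and 6.63 and 6.32 in Pax5 cells, so that no groups overlapped. Its difference between the factors was 1.44 (SE 0.11, limma adjusted p = 0.00135). St3gal4 was 6.64 and 6.58 in Control, 7.15 and 7.04 in EBF1 cells, and 6.15 and 6.17 in Pax5 cells, at 0.93 between the factors (SE 0.08, limma adjusted p = 0.00167). With the mean of their probe sets, neither gene passed against Control: St3gal1 differed by 0.35 with EBF1 and -0.50 with Pax5, and St3gal4 by 0.26 and -0.37. The differences between the factors still passed on that scale, at 0.85 and 0.64.

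St6gal1 encodes the enzyme that adds the linkage CD22 binds. It was 7.14 and 7.13 in Control, 7.41 and 7.37 in EBF1 cells, and 6.89 and 6.84 in Pax5 cells, without overlap between groups. It was 0.53 higher in EBF1 than in Pax5 cells (SE 0.07, limma adjusted p = 0.00805), while its differences of 0.25 and -0.27 from Control did not pass (0.118 and 0.112). Between the factors, 5 of the 13 sialyltransferase genes were higher in EBF1 cells and St6galnac1 (-0.70) was lower, with a median of 0.21 against 0.04 over all genes. Of all genes tested, 8.71% were called higher and 5.2% lower in that comparison.

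**Figure D3:**
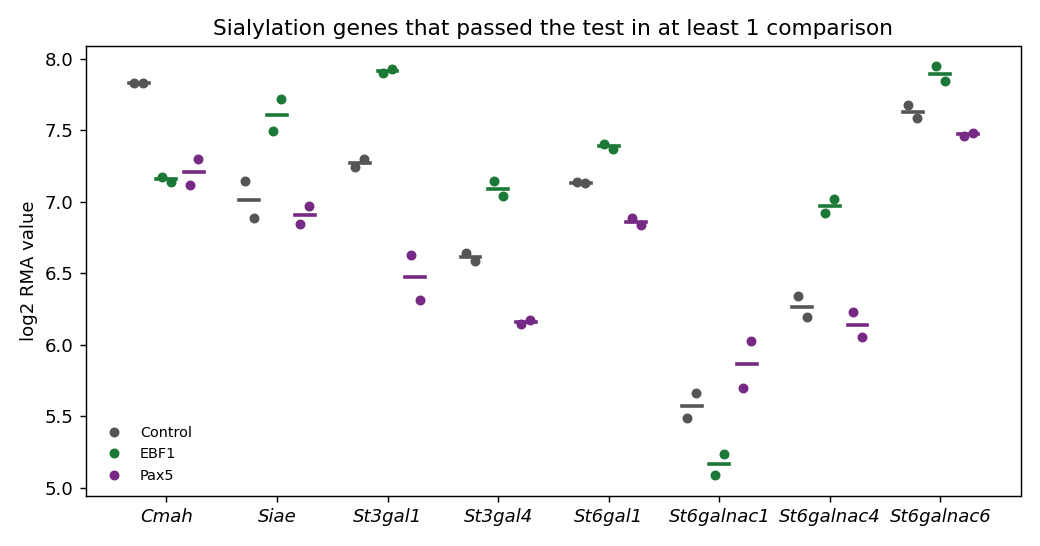
Log2 RMA values (y axis) of the 8 sialylation genes (x axis) that passed in at least 1 comparison. Points are arrays and short bars are group means (n = 2). Both St3gal genes lie highest in EBF1 cells and lowest in Pax5 cells, and Cmah lies highest in Control cells.

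Of 12 tested genes that supply or modify sialic acid, Cmah alone changed against Control, with either factor. Of all genes tested, 5.6% were called with EBF1 and 4.22% with Pax5. Cmah encodes the hydroxylase that converts the acetylated form of sialic acid to the glycolyl form, which mouse CD22 prefers. It was 7.83 on both Control arrays, 7.18 and 7.14 in EBF1 cells, and 7.11 and 7.30 in Pax5 cells, below Control on all 4 arrays. Cmah fell by 0.67 with EBF1 (SE 0.09, limma adjusted p = 0.0124) and by 0.62 with Pax5 (SE 0.09, limma adjusted p = 0.0185), and the difference between the factors was -0.05 (limma adjusted p = 0.742). The list medians were 0.01 and -0.10, against 0.01 and -0.04 over all genes. Siae, the esterase that removes the acetyl group hindering CD22 binding, was 0.70 higher in EBF1 than in Pax5 cells (SE 0.13, limma adjusted p = 0.0177), at a difference of 0.59 from Control with EBF1 that did not pass (0.0516).

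These calls on the genes around the Siglecs rest on few arrays. Of the 19 listed genes called with EBF1, 4 (Cd79b, Ly6d, Ccr9 and Dntt) passed whichever array was left out, of the 15 called with Pax5 0 did, and of the 27 called between the factors 10 did, St3gal1, St3gal4 and Cd79b among them. The changes of St3gal1, St3gal4 and Cmah against Control, with either factor, and that of St6galnac4 with EBF1, did not pass without either Control array or without either EBF1 array. For St3gal1 the adjusted p reached 0.225 with EBF1 and 0.17 with Pax5, and for St3gal4 0.209 and 0.254. Without Pax5 2 the St3gal4 change with Pax5 did not pass either. Lyn between the factors did not pass without EBF1 1 (limma adjusted p = 0.0502), nor Siae and St6gal1 without EBF1 1 or EBF1 2 (up to 0.116 and 0.079). For Ptpn6 between the factors, as for Lyn with EBF1, the call was lost without any 1 of the Control and EBF1 arrays. For Ptpn11 with Pax5 it was kept only without Pax5 1. For Cmah the adjusted p reached 0.129 with EBF1 and 0.169 with Pax5 when an array was left out. By the step-up adjusted p of the authors' deposited table, 0 of these genes passed with EBF1, 0 with Pax5 and 7 between the factors, Lyn, St3gal4 and St6gal1 among them.

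The genes with the most similar profile were sought for the 3 Siglec genes that passed, by Euclidean distance between log2 values centred on the mean of the 6 arrays, over 15288 other genes. This is a description of 6 arrays that fall into 3 groups. For Cd33 they were Cish, a feedback inhibitor induced by cytokine signalling through STAT proteins (distance 0.04), Camk2d, a calcium-dependent kinase gene (0.11), and 4631405J19Rik (0.14). Cish was 8.14 and 8.13 in Control, 9.11 and 9.28 in EBF1 cells, and 7.91 and 7.82 in Pax5 cells. For Siglech they were a heavy-chain variable segment (0.13), whose signal is uncertain because it belongs to a family of near-identical copies, Idi2 (0.19) and the cytokine receptor gene Il12rb2 (0.26). For Siglecg they were Nedd9, a scaffold protein gene (0.20), the survival gene Bcl2l1 (0.23) and the kinase gene Mknk2 (0.24). Nedd9 differed by 1.08 with Pax5 and 0.25 with EBF1, beside 1.01 and 0.17 for Siglecg.

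**Figure D4:**
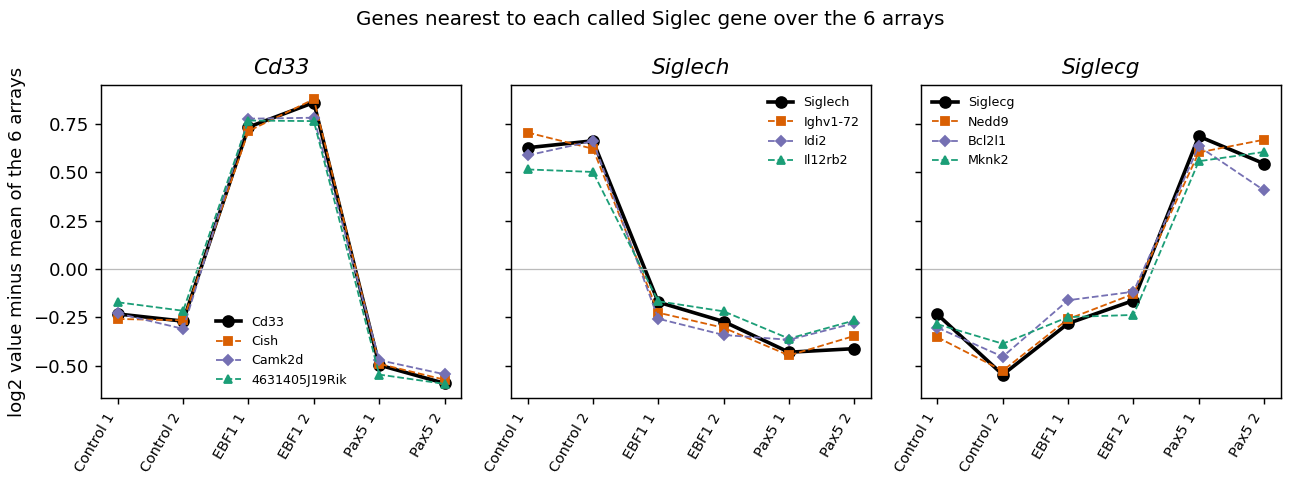
Log2 values minus the mean of the 6 arrays (y axis) on each array (x axis) for Cd33, Siglech and Siglecg (black) and the 3 genes nearest to each (dashed). Lines join arrays for reading only; the 3 genes in a panel lie at distances of 0.26 or less from its Siglec gene.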

How the data were processed

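Expression was measured in 6 samples, 2 in each of 3 groups named in the titles. The labels' protocols name NuGEN amplification of 50 ng RNA for Affymetrix arrays. The submitters' processing notes name RMA and Partek 6.5. The authors' values are on a log2 scale and equal in both deposited tables (largest difference 0). Per the file headers, the authors' second table adds p-values and step-up adjusted p-values for each pair of groups. Other options are not stated in the labels or headers. No detection call exists, and the number of arrays limits precision.

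Symbols came from the deposited annotation and were updated through a RefSeq table (GRCm38.p6; 22138 of 22969 probe sets with 1 symbol matched). The brightest probe set of a symbol was used when it lay above the array's 30th percentile on at least 2 arrays. limma 3.58.1 in R 4.3.3 (lmFit, eBayes, two-sided) fitted all 6 arrays with a mean per group (3 residual and 3.18 prior degrees of freedom), with Benjamini-Hochberg adjustment over 15295 genes; it was tested on simulated data. The 7 genes and all lists were chosen with earlier results of these data known. Named genes are the 7, up to 4 called genes per list and comparison with the largest difference, and the 3 nearest genes of each called member; Tyrobp, St6gal1, S100a8, S100a9, Col1a2 and Dcn were added after their values were seen, and 1 listed gene is not reported here. The labels number arrays 1 and 2 in each group; same-numbered arrays did not deviate together (correlations of 0.009, 0.007 and -0.012), so the numbers were not taken as pairs. Alternatives were repeated quantile normalization, other filters, the mean of probe sets, all probe sets, 2 groups only, eBayes options, the authors' p-values, the replicate block and leaving out each array.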

Additional observations from a re-analysis of the deposited data

How the results depend on the processing

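Across 306 combinations of Siglec gene, comparison and alternative, 280 kept their direction and side of the threshold, 12 lost a call, 3 gained one and 11 changed sign. Many of these could not change direction. Each gene has 1 probe set, so other filters, the mean of probe sets, other fits and the authors' p-values leave its difference as it was. Leaving out an array of the group not compared repeats the fit of 2 groups only. The count of 280 is thus no measure of robustness. With the authors' step-up p, 0, 0 and 1 Siglec genes were called (EBF1 and Pax5 against Control, EBF1 against Pax5) instead of 2 in each. Leaving out each array gave 1 to 2 for EBF1 against Control and 1 to 3 in each of the other comparisons, with 3 (Cd22 added) without Pax5 1. The sign changes were all in genes not called. Leaving out each array, the EBF1 difference ranged from -0.0246 to 0.1545 for Cd22, from -0.2859 to 0.054 for Siglece, from -0.0031 to 0.1043 for Siglec1 and from -0.0709 to 0.0883 for Siglec5. The Pax5 difference ranged from -0.0965 to 0.1843 for Siglec1 and from -0.1465 to 0.0127 for Siglec5, and that between the factors from -0.1337 to 0.1471 for Siglec1. After repeated quantile normalization the Pax5 difference of Siglec1 was -0.0294. The cause was not tested.

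With the replicate number as a block, 2 Siglec genes were called in each comparison, and the block changed no call of a Siglec gene; over all genes it gave 565, 412 and 1741 calls. The counts over all genes, 857, 646 and 2128, became 1324 and 1000 when the filter was set at the 50th percentile (comparisons with Control), 558 for EBF1 over all probe sets, 1424, 240 and 1093 with 2 groups only, 1786, 1643 and 3369 with the trend and robust options, and 6, 20 and 449 by the authors' step-up p. Leaving out an array gave 103 to 1424, 60 to 2407 and 410 to 3884. Cd22, Siglece and Siglec1 have no value under the 50th-percentile filter, which they did not pass. Siglec1 lay near the lower quartile of the arrays (2.72 to 2.87), and these files give no background level to set it against.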
